A study of Mus musculus with 6 samples.

Results

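The genes described here are the Myc, Max and Mxd network of transcription factors in LβT2 cells, an established mouse line of pituitary gonadotropes. Its 10 members were taken by symbol, although earlier results of these data were known: *Myc*, *Mycn*, *Mycl*, *Max*, *Mxd1*, *Mxd3*, *Mxd4*, *Mxi1*, *Mnt* and *Mlx*. All 10 were found among the 47069 genes of the count table, and all 10 passed the filter on low counts that left 14736 genes for testing. The study sequenced bulk mRNA from 6 LβT2 samples, 3 lysed fresh and 3 kept in RNA-Best, a preservation buffer, for at least 4 days at 4°C. Every sample was LβT2 at passage 14 that had received 2 nM gonadotropin-releasing hormone (GnRH) for 40 min, so the groups differ by preservation and no vehicle group was analysed. The comparison therefore asks whether preserved cells gave the same transcript levels as fresh cells, and it says nothing of what GnRH did to these genes. No label states whether the 3 samples of each group were grown as separate cultures. The p-values measure only the spread between these samples, which may be technical.

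Myc proteins are basic helix-loop-helix leucine zipper factors that bind DNA as dimers with Max. Such dimers favour a short sequence called the E-box and raise the transcription of genes for ribosome synthesis, nucleotide and polyamine synthesis and cell division. The Mxd proteins, Mxi1 and Mnt also pair with Max, bind the same sequence and recruit Sin3 corepressors, so they oppose Myc. Mlx is a Max-like factor that pairs with the glucose-sensing Mondo proteins and with some Mxd proteins and Mnt. *Myc* is also known as an immediate-early gene in many cell types, and its mRNA and protein are short-lived.

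The E-box, spelled CACGTG and read the same on both strands, stood in the promoter window of 4 of the 9 members that had one. The window runs from 250 bases before to 50 after each start site in the RefSeq promoter table, and *Myc* had no entry there. Of all 27025 genes in that table, 8.09% held the E-box, against 44.4% of these 9 members. The stretches around it are shown because they are the letters that the proteins of this network read, here in front of genes of the network itself. Each is printed 5′ to 3′ on the gene's strand, with the E-box in capitals, and the build is GRCm38.p6.
Max, chr12:76962234-76962263, minus strand: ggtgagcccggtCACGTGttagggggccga
Mxd4, chr5:34187912-34187941, minus strand: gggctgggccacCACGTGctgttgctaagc
Mnt, chr11:74830789-74830818, plus strand: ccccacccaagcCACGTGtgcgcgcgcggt
Mlx, chr11:101087238-101087267, plus strand: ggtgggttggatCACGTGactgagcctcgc
The first base of the E-box lay at position -3 from the annotated start in *Max*, at -40 in *Mlx*, at -123 in *Mnt* and at -219 in *Mxd4*. The windows of *Mycn*, *Mycl*, *Mxd1* and *Mxd3* and the 3 windows of *Mxi1* did not hold these letters. A match is a description of the sequence only. Of these 4 members, *Mlx* was lower in RNA-Best and *Max*, *Mxd4* and *Mnt* did not pass the test.

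The libraries held 4909418 to 47438746 counts, and the fresh libraries had in all 3.99 times as many counts as the RNA-Best libraries. A count of 0 allows up to 3 counts, or 0.0632 to 0.611 CPM by library, where CPM is the count scaled to the library's total, which covers counting error only. Gonadotrope markers summed to 5477 to 5575 CPM in fresh and to 4654 to 4809 CPM in RNA-Best cells. *Cga*, *Chga*, *Gnrhr* and *Nr5a1* were each present in all 6 libraries, while *Fshb* was at 0 in all. Of the markers of other cells, *Prl*, *Sox2*, *Col3a1* and *Ptprc* were at 0 in all 6 libraries. The 3 endothelial markers summed to 191 to 193 CPM in fresh and 197 to 209 CPM in RNA-Best cells, most of it from *Cdh5*. The summed levels of the 4 other hormone-cell markers, of the 3 stem or folliculostellate markers, of the 3 fibroblast markers and of the 3 leukocyte markers were each below 10 CPM in every library. The part of these marker levels in the results was not tested. In bulk samples, fewer cells of a type and less RNA per cell cannot be told apart.

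Of the network, 2 members differed between preserved and fresh cells. *Mxd3* and *Mlx* were lower in RNA-Best, no member was higher, and the other 8 members did not pass the test. Of all genes tested, 50.8% passed the same test in either direction, 26.0% with a higher and 24.8% with a lower level in RNA-Best. The members' 2 of 10 is thus a smaller share than that of all genes. The libraries of the groups did not overlap for *Mxd3* and *Mlx*, while over all genes tested 57.5% had groups that did not overlap. The share that passed differed with level: it was 23.5% of genes under 10 CPM, 58.2% of those at 10 to 100 CPM and 77.0% of those at 100 CPM or more. All 3 Myc genes lay under 10 CPM and none of them passed, and of the other 7 members, all between 10 and 100 CPM, 2 passed. The median log2 fold change of RNA-Best over fresh was -0.02 over the 10 members and -0.0074 over all genes, and the members ranged from -0.37 to 0.13.

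**Figure D1:**
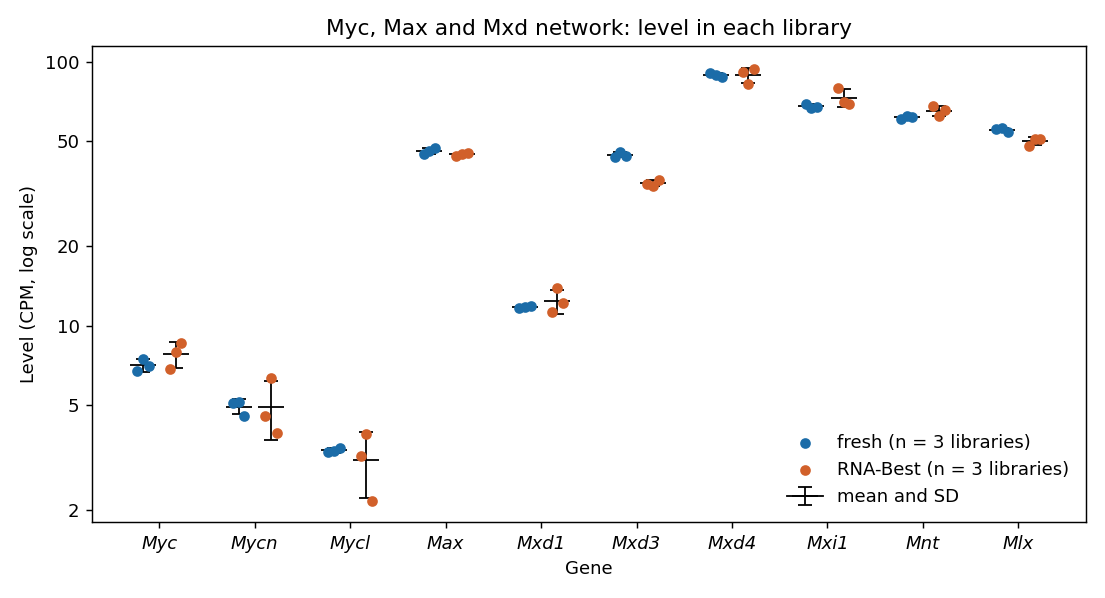
Level of each member in CPM, on a log axis, in the 3 fresh (blue) and 3 RNA-Best (orange) libraries, with the mean and SD in black. The groups lie apart for *Mxd3* and *Mlx*, and the 3 Myc genes lie lowest, with the widest scatter in RNA-Best.

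The Myc genes themselves were all expressed at a low level. *Myc* (chr15:61985391-61990374, plus strand) stood at 6.71, 7.48 and 7.05 CPM in the fresh libraries and at 6.84, 7.94 and 8.58 CPM in the RNA-Best libraries. The lowest RNA-Best library lay within the fresh range and the other two lay above it, so the groups overlapped. The means were 7.08 ± 0.388 CPM in fresh and 7.79 ± 0.883 CPM in RNA-Best (SD, n = 3 each). The log2 fold change was 0.13 (SE 0.114, 95% interval -0.10 to 0.36, adjusted p = 0.356 by edgeR's quasi-likelihood test). These levels rested on 102 to 355 counts of *Myc* per fresh library and on 39 to 103 per RNA-Best library, and 39 counts carry a counting error of 16.0%. Single libraries moved the log2 fold change: it was 0.0139 without RNA-Best replicate 3 (adjusted p = 0.96) and 0.227 without RNA-Best replicate 1 (adjusted p = 0.166).

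*Mycn* (chr12:12936093-12941914, minus strand), best known from neural progenitors and neuroblastoma, gave 5.11, 5.12 and 4.56 CPM in fresh and 4.56, 6.31 and 3.92 CPM in RNA-Best cells. The RNA-Best libraries lay on both sides of the fresh ones. Both means were 4.93 CPM, with an SD of 0.321 in fresh and 1.24 in RNA-Best. The fitted log2 fold change of -0.14 (SE 0.145, 95% interval -0.44 to 0.15, adjusted p = 0.428) weights libraries by depth and so can differ from the ratio of the means. *Mycl* (chr4:122995652-123002485, plus strand), the family member first found in lung cancer, gave 3.31, 3.35 and 3.45 CPM in fresh and 3.19, 3.87 and 2.17 CPM in RNA-Best cells. Again the preserved libraries spread around the fresh ones. Its log2 fold change was -0.25 (SE 0.176, 95% interval -0.61 to 0.11, adjusted p = 0.254), from as few as 19 counts in a library.

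*Max* (chr12:76937269-76962201, minus strand), the common partner of the Myc and Mxd proteins, stood at 44.9, 45.9 and 47.1 CPM in fresh and at 44.1, 44.9 and 45.0 CPM in RNA-Best cells. The groups overlapped at their edges. The log2 fold change was -0.05 (SE 0.0494, 95% interval -0.15 to 0.05, adjusted p = 0.429).

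*Mxd3* (chr13:55325168-55329823, minus strand), the Mxd protein linked to S phase in dividing cells, fell by 22.5% in RNA-Best cells. Its levels were 43.8, 45.6 and 44.1 CPM in fresh and 34.5, 33.8 and 35.7 CPM in RNA-Best cells. Every preserved library lay below every fresh one, by far more than the spread within a group. The means were 44.5 ± 0.958 and 34.7 ± 0.935 CPM (SD, n = 3 each), and the log2 fold change was -0.37 (SE 0.0531, 95% interval -0.48 to -0.26, adjusted p = 3.94e-07 by edgeR). Of all genes tested, 10% had a log2 fold change under -0.31. With an offset for gene length the value of *Mxd3* was -0.30 (adjusted p = 2.52e-05). *Mxd3* shares 105 exonic bases, 4.43% of its exonic length, with *Prelid1* on the opposite strand. *Prelid1*, a gene for a mitochondrial lipid transfer protein, gave 143, 146 and 144 CPM in fresh and 126, 125 and 128 CPM in RNA-Best cells, a log2 fold change of -0.20 (adjusted p = 5.32e-06). The strand setting of the counting is not given in the sources used here, so reads of this overlap cannot be told apart.

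*Mlx* (chr11:101087277-101092207, plus strand), the partner of the Mondo proteins, fell by 10.6%. It stood at 55.7, 56.0 and 54.1 CPM in fresh and at 48.1, 51.1 and 51.2 CPM in RNA-Best cells. All RNA-Best libraries lay below all fresh libraries, and RNA-Best replicate 1 lay lowest. The log2 fold change was -0.16 (SE 0.047, 95% interval -0.26 to -0.07, adjusted p = 0.00431). This call was less firm than that of *Mxd3*: without RNA-Best replicate 1 the log2 fold change was -0.13 (adjusted p = 0.0554), and with an offset for gene length in each library it was -0.08 (adjusted p = 0.208). *Mlx* shares 385 exonic bases, 19.3% of its exonic length, with *Psmc3ip* on the opposite strand, a gene for a meiotic recombination cofactor. *Psmc3ip* gave 51.8, 50.8 and 52.1 CPM in fresh and 44.3, 43.9 and 45.8 CPM in RNA-Best cells, a log2 fold change of -0.21 (adjusted p = 0.000439). The part of the shared bases in the difference of *Mlx* was not tested.

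The other antagonists of Myc did not pass the test. *Mxd1* (chr6:86647042-86669161, minus strand), a factor of terminal differentiation, gave 11.7, 11.8 and 11.9 CPM in fresh and 11.3, 13.9 and 12.2 CPM in RNA-Best cells. The fresh libraries lay inside the wider RNA-Best range, and the log2 fold change was 0.04 (SE 0.0896, 95% interval -0.14 to 0.22, adjusted p = 0.75). *Mxd4* (chr5:34173883-34187720, minus strand) had the highest CPM of the network before any correction for length. It gave 90.8, 89.6 and 87.7 CPM in fresh and 91.6, 82.3 and 93.7 CPM in RNA-Best cells. The groups overlapped, and the log2 fold change was -0.00014 (SE 0.0409, 95% interval -0.08 to 0.08, adjusted p = 0.998). With the length offset *Mxd4*, the longest member at 8483 exonic bases, was called lower, with a log2 fold change of -0.20 (adjusted p = 0.000112).

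*Mxi1* (chr19:53310518-53375810, plus strand), also known as Mxd2, gave 69.5, 67.1 and 67.6 CPM in fresh and 79.6, 70.5 and 69.4 CPM in RNA-Best cells. RNA-Best replicate 1 stood above the other 5 libraries, which lay close together. The log2 fold change was 0.09 (SE 0.0454, adjusted p = 0.102), and without RNA-Best replicate 1 it was 0.022 (adjusted p = 0.757). *Mnt* (chr11:74830920-74845725, plus strand), the antagonist present in most cell types, gave 60.7, 62.6 and 61.8 CPM in fresh and 67.9, 62.5 and 65.5 CPM in RNA-Best cells. A single RNA-Best library fell within the fresh range. Its log2 fold change was 0.08 (SE 0.0436, adjusted p = 0.14), and an offset for GC content brought it to 0.19 (adjusted p = 0.000335). *Mxd4* and *Mxi1* each overlap a gene model on the opposite strand, *Gm42846* and *Gm10197*, and both of these were at 0 in all 6 libraries.

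**Figure D2:**
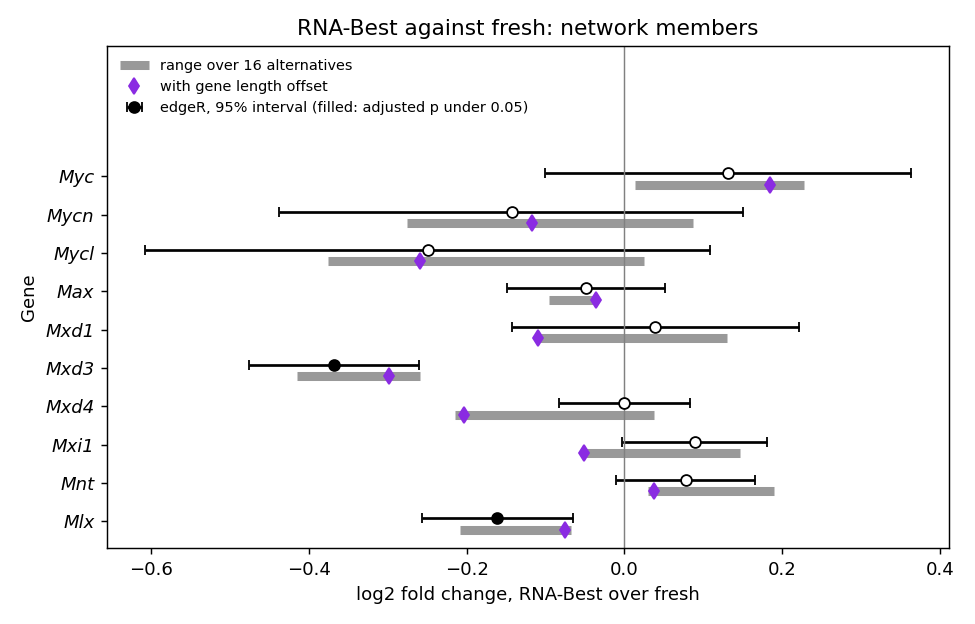
Log2 fold change of RNA-Best over fresh for each member with its 95% interval (circles, filled where the adjusted p was under 0.05), the value with a gene length offset (diamonds) and the range over 16 alternatives (grey bars). *Mxd3*, *Mlx* and *Max* lie below 0 under every alternative, and the 95% intervals of *Mxd3* and *Mlx* are the ones that leave out 0.

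The members ranked differently once their levels were divided by exonic length. In CPM per kilobase (kb) of exonic length, *Mlx* came first in fresh cells at 27.6 ± 0.511, followed by *Mxd3* at 18.8 ± 0.405 and *Mnt* at 13.3 ± 0.204 (SD, n = 3). *Max* at 12.8 ± 0.311, *Mxd4* at 10.5 ± 0.182 and *Mxi1* at 9.98 ± 0.191 CPM per kb formed the middle. *Myc* at 2.61 ± 0.143, *Mxd1* at 1.67 ± 0.0134, *Mycn* at 1.5 ± 0.0974 and *Mycl* at 0.835 ± 0.0187 CPM per kb came last. In each neighbouring pair of this order, all 3 fresh libraries of the upper gene lay above all 3 of the lower gene. In RNA-Best cells the libraries of *Mxd3* and *Mnt*, of *Mxd4* and *Mxi1* and of *Mxd1* and *Mycn* overlapped, so those neighbours did not differ beyond their spread. RNA-Best levels were 25.1 ± 0.88 CPM per kb for *Mlx*, 14.6 ± 0.395 for *Mxd3*, 14.1 ± 0.585 for *Mnt* and 2.87 ± 0.325 for *Myc*. The middle of this order depended on the length used. Divided by the longest transcript, *Max* came to 23.7 and *Mxd4* to 19.3 CPM per kb in fresh cells, *Mnt* at 13.4 fell from rank 3 to rank 6, and *Max* rose to rank 3 in fresh and rank 2 in RNA-Best cells. *Mlx* stayed first and the Myc genes and *Mxd1* last with either length.

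By class, the antagonists held most of the network's summed level, but this class also holds the most genes. *Max* and *Mlx* are classes of 1 gene each, and the shares are not divided by the number of genes. *Mxd1*, *Mxd3*, *Mxd4*, *Mxi1* and *Mnt* together made up 54.5% ± 0.0537 of the summed CPM per kb in fresh and 54.8% ± 1.68 in RNA-Best cells (SD, n = 3 each). *Mlx* made up 27.7% ± 0.35 and 26.6% ± 0.948, and *Max* 12.8% ± 0.366 and 13.2% ± 0.169. The 3 Myc genes held 4.95% ± 0.129 in fresh and 5.43% ± 0.663 in RNA-Best cells, with 6.19% in RNA-Best replicate 2 as the highest library. The mean share of each class differed little between the groups, and *Mlx* was the class whose libraries did not overlap. The summed level itself was 99.3, 101 and 98.9 CPM per kb in fresh and 94.3, 93.6 and 95.1 CPM per kb in RNA-Best cells. These groups did not overlap, and the means were 99.7 ± 0.955 and 94.4 ± 0.757 CPM per kb. The fall of *Mxd3* from 18.8 to 14.6 CPM per kb and that of *Mlx* from 27.6 to 25.1 CPM per kb were together larger than this step. These are mRNA levels, and no protein was measured.

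**Figure D3:**
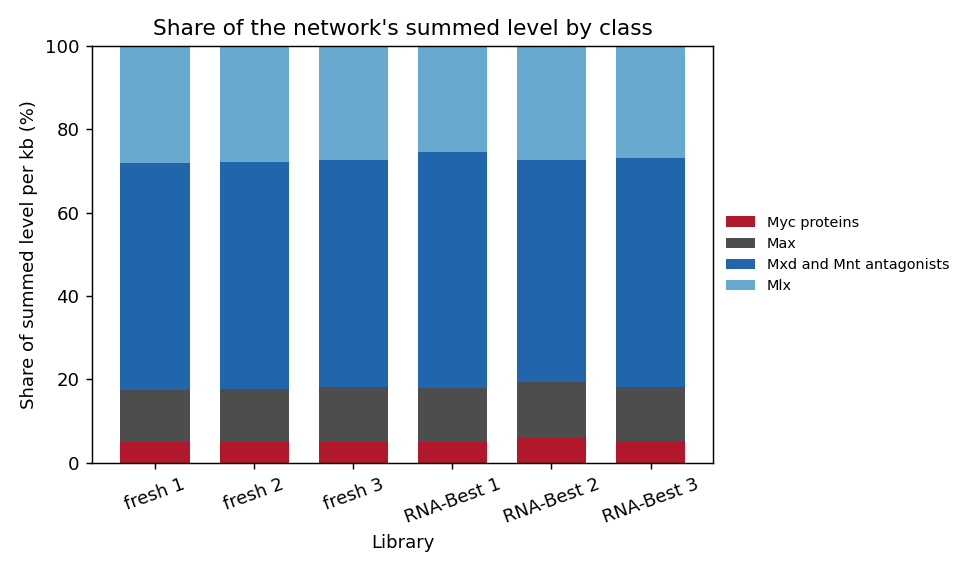
Share of the network's summed level per kb of exonic length held by each class, in percent, for each of the 6 libraries. The bars look alike in both groups: antagonists 53.2% to 56.5%, *Mlx* 25.5% to 28.0%, *Max* 12.6% to 13.3% and Myc genes 4.87% to 6.19%.

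The genes whose pattern over the 6 libraries was most like that of *Myc* were *Tgfb1i1*, *Gm8659* and *Zfp667*. Likeness was the root mean square difference of centred log2(CPM + 1) values over tested genes of at least 1 CPM outside the lists used here, and it was 0.0195 for *Tgfb1i1*, 0.0282 for *Gm8659* and 0.0297 for *Zfp667*. None of these 3 passed the test (adjusted p from 0.184 to 0.711), and *Myc* did not pass either. Mean levels in fresh and RNA-Best cells were 1.03 and 1.22 CPM for *Tgfb1i1*, near the limit of 1 CPM. They were 2.27 and 2.47 CPM for *Gm8659* and 13.9 and 15.4 CPM for *Zfp667*. Adding 1 to the CPM shrinks differences at such low levels, and the *Myc* pattern rests on as few as 39 counts. This likeness may thus be noise, which was not tested. Within the network *Mxd1* was nearest to *Myc* at 0.0929 and *Mycl* farthest at 0.268.

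Many genes for proteins that work with the network differed between the groups. A list of partners and regulators held 44 genes in the table, of which 43 were tested. In RNA-Best cells 20 of them were higher, 12 were lower and 11 did not pass, with a median log2 fold change of -0.0078 and a range of -0.43 to 0.86. The number lower was 6 with counts thinned to the smallest library and 18 with no filter, with 20 higher in both. The share called was 74.4%, but these genes are abundant: 19 of the 23 at 100 CPM or more were called and 12 of the 19 at 10 to 100 CPM, beside the 77.0% and 58.2% of all genes at those levels. *Igf2bp1*, an mRNA-binding protein known to stabilize *Myc* mRNA, was at 0 in all libraries and was not tested.

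The 3 dimerization partners outside the 10 members were all higher in RNA-Best, beside 26.0% of all genes. Both *Mga* and *Mlxip* are over 8000 exonic bases, a length at which 1595 of 2297 genes were higher. With the length offset 2 of these 3 partners were higher. *Mga*, a large repressor that pairs with Max, gave 46.7, 45.8 and 46.8 CPM in fresh and 87.3, 93.1 and 78.8 CPM in RNA-Best cells. The groups lay far apart, at a log2 fold change of 0.86 (SE 0.0469, adjusted p = 6.42e-17), the highest of the list. *Mlxip*, which encodes the Mondo protein MondoA, gave 73.4, 74.5 and 70.2 CPM in fresh and 105, 105 and 94.4 CPM in RNA-Best cells, also without overlap. Its log2 fold change was 0.44 (SE 0.042, adjusted p = 6.23e-11), while that of its partner *Mlx* was -0.16, a difference between genes that was not tested. With the length offset *Mlxip* came to 0.24 (adjusted p = 9.86e-06) and *Mlx* to -0.08. *Mlxipl*, which encodes the Mondo protein ChREBP, gave 89.4, 96.6 and 94.6 CPM in fresh and 110, 117 and 98.0 CPM in RNA-Best cells. The log2 fold change of *Mlxipl* was 0.18 (adjusted p = 0.00132), and it did not pass with the length offset, at 0.09 (adjusted p = 0.101).

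Among coactivators and chromatin cofactors, 5 of 12 were higher, *Trrap*, *Bptf*, *Ep400* and *Usp22* among them, and 3 were lower (*Ruvbl2*, *Cdk9* and *Wdr5*). Their share called was 66.7%, beside 58.2% of all genes at 10 to 100 CPM and 77.0% of those at 100 CPM or more. By direction, 26.0% of all genes were higher and 24.8% lower. *Trrap*, the scaffold through which Myc recruits histone acetyltransferases, went from 142 ± 4.69 to 207 ± 4.47 CPM, a log2 fold change of 0.52 (adjusted p = 3.26e-15). With the length offset *Trrap* did not pass, at 0.06 (adjusted p = 0.125). *Ruvbl2*, an ATPase of chromatin remodelling complexes, went from 132 ± 4.06 to 116 ± 5.19 CPM, a log2 fold change of -0.20 (adjusted p = 2.19e-05).

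Of the 8 corepressors, 3 were higher, *Ncor1* and *Sin3a* among them, and 4 were lower (*Sap30*, *Sap18*, *Hdac1* and *Sin3b*). Beside them, 26.0% of all genes were higher and 24.8% lower. In either direction 58.2% of genes at 10 to 100 CPM and 77.0% of those at 100 CPM or more passed. *Ncor1*, the nuclear receptor corepressor, gave 382, 384 and 358 CPM in fresh and 580, 584 and 577 CPM in RNA-Best cells, a log2 fold change of 0.61 (adjusted p = 1.1e-18). *Sin3a* and *Sin3b*, the scaffolds that Mxd proteins bind, had log2 fold changes of 0.17 (adjusted p = 3.6e-05) and -0.13 (adjusted p = 0.0156). *Sin3b* passed in 11 of 16 alternatives, and the length offset brought it to -0.29 (adjusted p = 2.02e-06). *Sin3b* did not pass with the GC offset (-0.06, adjusted p = 0.307), without fresh replicate 2 (-0.11, adjusted p = 0.0554) or without RNA-Best replicate 1 (-0.10, adjusted p = 0.137). With thinned counts (adjusted p = 0.115) and with the DESeq2 test (adjusted p = 0.0845) it did not pass either. *Sap30*, a small subunit of the Sin3 complex, went from 19.1 ± 2.02 to 15.0 ± 0.999 CPM, a log2 fold change of -0.29 (adjusted p = 0.00585) that did not pass with the length offset (adjusted p = 0.131).

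Genes that control the turnover of Myc protein were higher in 7 of 11 cases and lower in 2, beside 26.0% and 24.8% of all genes. Under the length offset 5 were higher and 2 were lower. *Huwe1*, a large ubiquitin ligase, gave 301, 307 and 296 CPM in fresh and 471, 479 and 467 CPM in RNA-Best cells. The groups were far apart relative to their spread, at a log2 fold change of 0.63 (adjusted p = 2.06e-19). *Skp2*, a ubiquitin ligase subunit, had a log2 fold change of 0.46 (adjusted p = 1.8e-08) and *Fbxw7*, the subunit that recognises phosphorylated Myc, 0.25 (adjusted p = 0.00636). *Fbxw7* did not pass with the length offset (0.10, adjusted p = 0.318), with the GC offset (0.16, adjusted p = 0.078) or without RNA-Best replicate 3 (0.17, adjusted p = 0.173).

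Among the 4 binding proteins and neighbouring transcripts, *Mycbp2* was higher, *Pvt1* was lower and *Mycbp* and *Bin1* did not pass. *Mycbp2*, a giant ubiquitin ligase named for its binding to Myc, went from 131 ± 4.66 to 211 ± 8.26 CPM, a log2 fold change of 0.67 (adjusted p = 7.73e-18). *Pvt1*, the noncoding transcript next to *Myc* on chromosome 15, gave 7.18, 6.96 and 7.18 CPM in fresh and 6.61, 5.09 and 5.33 CPM in RNA-Best cells. Its log2 fold change was -0.32 (adjusted p = 0.0281) beside 0.13 for *Myc*, and the difference between these neighbours was not tested. *Pvt1* did not pass without RNA-Best replicate 2 (-0.28, adjusted p = 0.088) or without RNA-Best replicate 3 (-0.23, adjusted p = 0.252). Of the 5 tested regulators of *Myc* transcription or mRNA, *Fubp1* was higher, *Cnbp* and *Elavl1* were lower, and *Hnrnpk* and *Hnrnpd* did not pass. With the length offset 0 of these 5 were higher and 4 were lower: *Fubp1* came to -0.08 (adjusted p = 0.095), and *Hnrnpk* at -0.18 (adjusted p = 2.96e-06) and *Hnrnpd* at -0.20 (adjusted p = 3.27e-06) passed.

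The highest values of this list belonged to long genes. Over 8000 exonic bases, 12 of 14 partners and regulators were higher and 1 was lower, with a median log2 fold change of 0.47. Of the 29 genes up to that length, 8 were higher and 11 were lower, with a median of -0.05, beside -0.05 over all 12380 genes up to that length. Over all genes tested, 1595 of the 2297 genes over 8000 bases were higher and 75 were lower, and their median was 0.26. With the length offset 15 partners and regulators were higher and 14 were lower, beside 2295 higher and 3714 lower of all 14736 genes. In that fit the log2 fold change of *Mga* was 0.48 (adjusted p = 5.16e-10), of *Huwe1* 0.14 (adjusted p = 6.97e-05), of *Mycbp2* 0.23 (adjusted p = 5.2e-07) and of *Ncor1* 0.28 (adjusted p = 5.06e-10). The 10 members had a median exonic length of 3818 bases, near the 3925 bases of all genes tested, and 1 of them, *Mxd4*, was over 8000 bases.

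**Figure D4:**
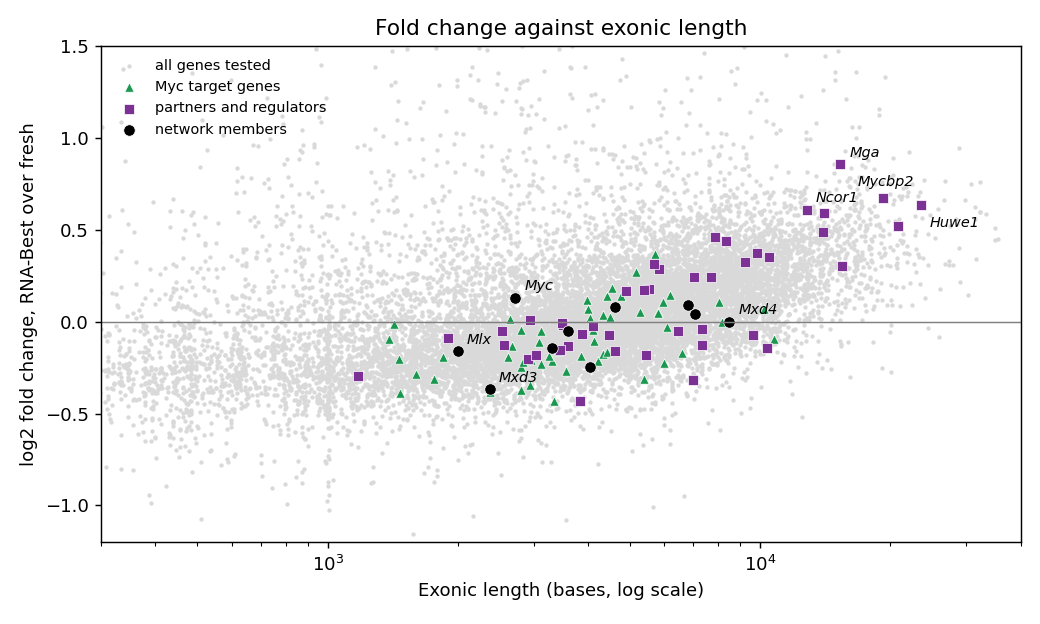
Log2 fold change of RNA-Best over fresh against exonic length in bases, on a log axis, for all genes tested (grey), Myc target genes (green), partners and regulators (purple) and the members (black). The purple points over 8000 bases lie mostly above 0, the members lie between -0.37 and 0.13, and 263 genes lie outside the plotted range.

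Among genes known as targets of Myc, most of those that passed the test were lower in RNA-Best, as were most shorter genes of the table that passed. The list also holds 5 genes that Myc is known to repress and 2 targets of Mondo-Mlx dimers. Of its 56 genes 55 were tested, and 27 were lower, 9 were higher and 19 did not pass, with a median log2 fold change of -0.10 and a range of -0.43 to 0.37. The share called was 65.5%, beside 24.8% of all genes lower and 26.0% higher. Of the targets, 51 had up to 8000 exonic bases, and 26 of these were lower and 8 were higher, while 3565 of all 12380 genes up to that length were lower and 2220 were higher. Without fresh replicate 2, and likewise without RNA-Best replicate 3, 5 targets in place of 9 were higher. By level, 21 of the 28 at 100 CPM or more and 13 of the 23 at 10 to 100 CPM were called, beside 77.0% and 58.2% of all genes at those levels. With the length offset 26 were lower and 4 were higher, and over all genes the calls higher also fell, from 3828 to 2295, beside 3651 and 3714 lower. *Ccnd2*, a cyclin gene, was at no more than 0.138 CPM in any library and was not tested. The E-box stood in the promoter window of 13 of the 48 target genes that had one, or 27.1%.

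Nucleolar and ribosome synthesis genes were lower in 7 of 19 cases and higher in 4 (*Ddx21*, *Wdr43*, *Nolc1* and *Ncl*). The share called was 57.9%, near the 50.8% of all genes, of which 24.8% were lower and 26.0% higher. *Wdr43*, at 0.14, did not pass with the length offset (0.09, adjusted p = 0.088) or with the GC offset (0.02, adjusted p = 0.712). *Nolc1* did not pass without RNA-Best replicate 3 (adjusted p = 0.112). Of the lower genes, *Nop58* at -0.09 (adjusted p = 0.0474) passed in 9 of 16 alternatives, and the offsets made its log2 fold change larger in size, at -0.37 for length (adjusted p = 5.85e-09) and -0.25 for GC (adjusted p = 1.02e-06). *Dkc1* at -0.10 (adjusted p = 0.0432) passed in 7 of 16 and did not pass with a replicate block (-0.10, adjusted p = 0.0558). Neither passed without RNA-Best replicate 1 or with voom or the DESeq2 test. The call of *Nop58* was further lost on leaving out fresh replicate 1 or RNA-Best replicate 2, and that of *Dkc1* on leaving out fresh replicates 2 or 3 or RNA-Best replicates 2 or 3, each left out alone (adjusted p from 0.0517 to 0.24). *Ddx21*, a nucleolar helicase, gave 61.5, 61.3 and 62.0 CPM in fresh and 73.9, 74.3 and 75.7 CPM in RNA-Best cells, a log2 fold change of 0.27 (adjusted p = 1.35e-06). *Ncl*, which encodes nucleolin, had a log2 fold change of 0.07 (adjusted p = 0.0439) that turned to -0.20 with the length offset (adjusted p = 7.74e-07). *Ncl* did not pass without fresh replicates 2 or 3 or RNA-Best replicates 2 or 3, each left out alone (adjusted p from 0.0947 to 0.221). Polyamine, nucleotide and one-carbon metabolism genes were lower in 6 of 10 cases and higher in 1, *Ppat*, beside 24.8% and 26.0% of all genes, and 58.2% of all genes at 10 to 100 CPM and 77.0% above that passed in either direction. The log2 fold change of *Ppat* was 0.14, which the GC offset brought to 0.02 (adjusted p = 0.715), and *Ppat* did not pass without fresh replicate 2 (0.12, adjusted p = 0.0506) or RNA-Best replicate 3 (0.11, adjusted p = 0.128). *Nme1*, a nucleoside diphosphate kinase, gave 96.0, 93.7 and 96.3 CPM in fresh and 74.6, 66.0 and 71.1 CPM in RNA-Best cells. Its groups did not overlap, and its log2 fold change of -0.43 (adjusted p = 9.74e-11) was the lowest of the targets. *Odc1*, the ornithine decarboxylase that starts polyamine synthesis, gave 78.8, 78.1 and 78.1 CPM in fresh and 70.3, 71.8 and 70.8 CPM in RNA-Best cells, a log2 fold change of -0.16 (adjusted p = 0.00127).

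Translation factors were lower in 3 of 4 cases and chaperone and mitochondrial genes in 3 of 4, with none higher in either group. Beside this, 24.8% of all genes were lower. In either direction 58.2% of genes at 10 to 100 CPM passed, where *Eif4e*, *Hspe1* and *C1qbp* lay, and 77.0% of genes at 100 CPM or more. *Eif5a*, a translation elongation factor, went from 699 ± 17.0 to 541 ± 10.3 CPM, a log2 fold change of -0.38 (adjusted p = 9.41e-14). *Hspe1*, the mitochondrial chaperonin cofactor, went from 75.2 ± 2.32 to 57.9 ± 1.6 CPM at -0.39 (adjusted p = 3.97e-09), and *Phb*, which encodes prohibitin, from 144 ± 1.71 to 113 ± 2.36 CPM at -0.37 (adjusted p = 5.06e-11). The members of these groups that did not pass were *Pa2g4* and *Hspd1*.

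Among glycolysis and iron uptake genes, *Ldha* and *Eno1* were lower and *Hk2* and *Tfrc* were higher. *Hk2*, a hexokinase, had a log2 fold change of 0.11 (adjusted p = 0.0185) that the length offset brought to 0.002 (adjusted p = 0.973), and it did not pass without fresh replicate 2 (adjusted p = 0.152), fresh replicate 3 (adjusted p = 0.056) or RNA-Best replicate 1 (adjusted p = 0.103). *Tfrc*, the transferrin receptor, went from 362 ± 11.6 to 405 ± 3.86 CPM, a log2 fold change of 0.14 (adjusted p = 6.89e-05) that did not pass with the length offset, at 0.03 (adjusted p = 0.425), and turned to -0.03 with the GC offset (adjusted p = 0.468). Of the 7 cell cycle and chromatin genes tested, 4 were lower (*Ptma*, *Cdk4*, *Rcc1* and *Mcm7*) and *Tert* was higher. Over all genes 24.8% were lower and 26.0% higher, and 77.0% of those at 100 CPM or more passed in either direction. *Tert*, the telomerase reverse transcriptase, gave 4.44, 4.11 and 3.94 CPM in fresh and 5.47, 5.70 and 5.42 CPM in RNA-Best cells, a log2 fold change of 0.37 (adjusted p = 0.0228). *Tert* passed the test in 7 of 16 alternatives, and did not pass without fresh replicate 2 (0.33, adjusted p = 0.0631) or without any single RNA-Best replicate (0.355 to 0.386, adjusted p from 0.0502 to 0.0805).

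Genes that Myc is known to repress did not move one way. *Cdkn1a*, which encodes the cell cycle inhibitor p21, went from 128 ± 6.01 to 106 ± 5.18 CPM, a log2 fold change of -0.27 (adjusted p = 5.83e-07). *Cdkn1b*, which encodes the inhibitor p27, went from 161 ± 2.54 to 186 ± 7.63 CPM, a log2 fold change of 0.18 (adjusted p = 1.84e-05). *Gadd45a*, a stress gene, was lower at -0.31 (adjusted p = 0.0266), and *Cdkn2b* and *Ndrg1* did not pass. *Gadd45a* passed in 11 of 16 alternatives, but not with the length offset (-0.22, adjusted p = 0.149) nor without RNA-Best replicate 1 (adjusted p = 0.145) or RNA-Best replicate 2 (adjusted p = 0.155). *Cdkn1b* did not pass with the GC offset (0.05, adjusted p = 0.189). The glucose-responsive targets of Mondo-Mlx dimers, *Txnip* and *Arrdc4*, did not pass either. *Txnip*, an inhibitor of thioredoxin, stood at 111, 117 and 120 CPM in fresh and 113, 117 and 111 CPM in RNA-Best cells, and *Arrdc4*, an arrestin-like gene, at 34.1, 33.9 and 34.8 and at 36.2, 33.0 and 34.8 CPM. Their log2 fold changes were -0.05 (adjusted p = 0.303) and 0.02 (adjusted p = 0.779), with groups that overlapped.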

How the data were processed

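The authors made TruSeq mRNA libraries, sequenced single reads, aligned them to GRCm38 with STAR 2.5.1b and counted them per GENCODE gene with featureCounts 1.5.0-p1. The deposited values are estimated counts, not scaled for library size. In each library 9.36% to 16.3% of the values were not whole (tolerance 0.001), so reads were divided among genes, and the settings for shared reads and strand are not given in the sources used here. Values of overlapping genes and close copies are thus uncertain.

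CPM were taken from column totals. Rounded counts were tested in R 4.3.3 with edgeR 4.0.16 (quasi-likelihood test, TMM, filterByExpr with a minimum count of 10), with Benjamini-Hochberg adjustment over all 14736 genes tested and a threshold of 0.05. Positions and exonic lengths were read from GENCODE annotation of GRCm38 newer than that of the authors, for 46488 genes. Alternatives used DESeq2 1.42.0, limma 3.58.1 (voom), other scalings and filters, length and GC offsets (loess, span 0.5), thinned counts, a replicate block and left-out libraries. The code was tested on simulated counts. Libraries of a group differed by more than counting noise (chi-square of 1.08 to 1.95 per gene).

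The members and lists were chosen with earlier results of these data known. Named are all members, the 4 highest and 4 lowest called genes of each other list whose groups do not overlap, and genes that describe role groups of 5 or fewer. *Sin3a*, *Sin3b*, *Skp2*, *Fbxw7*, *Trrap*, *Ncl*, *Odc1*, *Nop58*, *Dkc1* and the genes spelled out for counts of 5 or fewer in larger groups were chosen after their values were seen. Some list genes are counted but not reported here by name.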

Additional observations from a re-analysis of the deposited data

How the results depend on the processing

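*Mxd3* was called lower under all 16 alternatives, with log2 fold changes of -0.41 to -0.26 (adjusted p from 5.39e-12 to 0.0158), and *Mlx* under 12, with -0.21 to -0.07 (adjusted p from 0.000242 to 0.292). *Myc*, *Mycn*, *Mycl*, *Max* and *Mxd1* were called under none. The number of members called was 1 when counts were thinned to the smallest library and ranged from 1 to 3 when single libraries were left out, where leaving out RNA-Best replicate 1 took *Mlx* away and leaving out RNA-Best replicate 3 added *Mxi1* at 0.15 (adjusted p = 0.0282).

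Direction turned for members that were not called. Leaving out single libraries gave -0.276 to 0.0336 for *Mycn*, -0.376 to 0.0253 for *Mycl*, -0.00782 to 0.0959 for *Mxd1* and -0.0379 to 0.0374 for *Mxd4*, with the turned values without RNA-Best replicate 3 for *Mycn* and *Mycl*, without RNA-Best replicate 2 for *Mxd1*, and without either fresh replicate 1 or RNA-Best replicate 2 for *Mxd4*. *Mxd1* came to -0.11 with the length offset, to -0.113 with the replicate block and length offset and to -0.0079 with no filter. *Mxd4* came to 0.0019 with a filter of 1 CPM, 0.0027 with DESeq2 size factors and 3.08e-05 with voom. *Mxi1* came to -0.0514 with the length offset, -0.0489 with the replicate block and length offset and -0.0017 with the GC offset. *Mycn* came to 0.087 when counts were thinned. The cause was not tested.

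With the longest transcript in place of exonic length, the share of the Myc genes in fresh cells was 4.42%, of *Max* 17.9% in fresh and 18.4% in RNA-Best, of the antagonists in fresh 56.3% and of *Mlx* 21.3% and 20.4%. With no filter 3 target genes were higher and 29 lower. No pairing by replicate number was seen (correlations of same-numbered libraries -0.0084, 0.012 and -0.0077). RNA-Best libraries differed little beyond counting noise (chi-square of 1.08 to 1.26 per gene), so this check could miss a pairing. A replicate block left the members called at 2, partners and regulators at 32 and target genes at 36. Among the targets *Dkc1* was lost and *Nop16* gained (-0.23, adjusted p = 0.0296). The block changed no other call of these lists. Depth limits the Myc genes most, at 19 to 355 counts per library.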
